A study of Taeniopygia guttata with 2 samples.

Results

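Cadherins and protocadherins are calcium-dependent adhesion molecules of the cell surface. The genes described here were all gene columns of the deposited count table whose symbol begins with CDH or PCDH, with or without further letters, and goes on with a digit, which gave 34 of 17430 gene columns. They were 2 classical type I cadherins, 11 classical type II cadherins, 4 other cadherins, 5 delta-1 and 5 delta-2 protocadherins, 2 other protocadherins and 5 cadherin-related genes (CDHR). Cadherins and clustered protocadherins without a matching symbol were not analysed here.

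The data came from single-nucleus RNA sequencing of Area X, the nucleus of the songbird basal ganglia needed for song learning, in adult male zebra finches aged 160 to 185 days post hatch by the labels. One library came from birds injected with an adeno-associated virus carrying a scrambled hairpin (CS-shScr), and the other from birds given the same kind of virus with hairpins against FoxP2 (CS-shFoxP2), a transcription factor of striatal neurons. Both constructs carried the Cre-switchable design, and each library pooled punches of 2 birds, so that birds could not be told apart. The labels give the cell type as striatal projection neurons, while the nuclei include glia, interneurons, vascular and blood cells. Each condition therefore had 1 library, and no difference between the conditions has a replicate or a test.

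Classical cadherins of adjoining cells bind each other through their extracellular repeats, and their tails are tied to actin through catenins. Type II cadherins and delta-protocadherins are known from vertebrate brains for combinations that differ between nuclei, layers and neuron types, where they take part in sorting of neurons, fasciculation of axons and choice of synaptic partners. CDH23 and PCDH15 are best known from the inner ear, where together they form the tip links of hair cells.

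The libraries held 14289 nuclei (shScr) and 12956 nuclei (shFoxP2) with medians of 2300 and 2871 unique molecular identifiers (UMIs, counted transcripts) per nucleus, and 47 cell barcodes occurred in both. A level below is the number of UMIs of a gene, summed within a class or cluster of nuclei, for every 10000 UMIs of all genes summed alike. Intervals in brackets are exact 95% intervals (Poisson for a level, binomial for a ratio or fold), and cover counting error only. Values given in pairs are those of the shScr library first and of the shFoxP2 library second, unless said otherwise. Levels were compared between groups of nuclei for 1 gene at a time, not between genes, since gene lengths were not used. FOXP2 RNA, summed over all nuclei with exons and introns together, was not lower in the library labelled shFoxP2 (5.02 UMIs per 10000 against 4.31). The condition is therefore called by its label throughout. The paper measured the knockdown as FoxP2 protein, which was reduced in infected cells of Area X. Protein was not measured in these data, and infected nuclei were not told apart from others here. Markers listed for each of the 10 cell classes were checked for being highest in their own class. Of those with a gene column, 6 of 11 MSN, 4 of 4 pallidal-like and 5 of 8 interneuron markers were so. So were 3 of 4 GLUT+, 5 of 6 astrocyte, 3 of 3 oligodendrocyte and 2 of 4 oligodendrocyte precursor markers. The rest were 4 of 4 microglia, 6 of 6 endothelial and 4 of 4 red blood cell markers. FOXP2 and MEIS2, counted here as pallidal-like, are not given for these cells in the paper's marker list. The red blood cells, which are nucleated in birds, were the shallowest class (medians of 659 and 630 UMIs), and their level is given beside some genes below as a reference. Whether it measures free RNA was not tested, and DRD1, a receptor gene of striatal neurons, had its highest level of all clusters there (2.04 and 1.78).

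Together the 34 genes took 545112 UMIs of the shScr library and 678371 UMIs of the shFoxP2 library, or 1.39% and 1.59% of all UMIs. Most of these belonged to a few genes. PCDH9 (308991 UMIs) and PCDH7 (308571), both delta-1 protocadherins, were followed by the type II cadherins CDH12 (131405), CDH9 (91143) and CDH18 (78917). CDH10 (55739 UMIs), PCDH11X (42230), PCDH15 (39369), CDH20 (26450), CDH8 (25933), PCDH10 (18555), CDH4 (16791), CDH13 (16038), CDH2 (10906) and CDH11 (10296) were next. Lower sums were those of PCDH19 (9312 UMIs), PCDH17 (7577), CDH7 (7231), PCDH1 (6995), CDH19 (3253), CDH17 (3245), CDH23 (1434), CDHR1 (1009), CDH22 (624), PCDH8 (400), PCDH18 (346), PCDH20 (324) and CDH5 (266). These 28 genes reached the minimum of 200 UMIs set for comparisons. The other 6 did not: CDHR3 (75 UMIs), CDHR2 (21), CDH15 (18), PCDH12 (9), CDHR5 (8) and CDHR4 (2). Among these last are genes known from other organs in mammals, such as CDH15 of skeletal muscle and CDHR2 and CDHR5 of the intestinal brush border.

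A class far above the others was rare for these genes, as it was for all genes. The class with the highest level was the same in both libraries for 17 of 28 genes, against 49.6% of all 11549 genes with at least 200 UMIs. At the finer grain of the 23 clusters, the highest cluster was the same in both libraries for 22 of 28 genes, against 46.8% of all genes. All genes were not matched to the family for UMI sums, of which its 34 of 17430 gene columns held 1.39% and 1.59%. This agreement therefore cannot be called particular to the family. A highest class at least 3 times the next in both libraries was seen for 2 of 28 genes, CDH19 and CDH5, beside 3.86% of all genes. The clusters were drawn from these same nuclei and genes, so levels across them describe the clusters and test nothing.

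**Figure D1:**
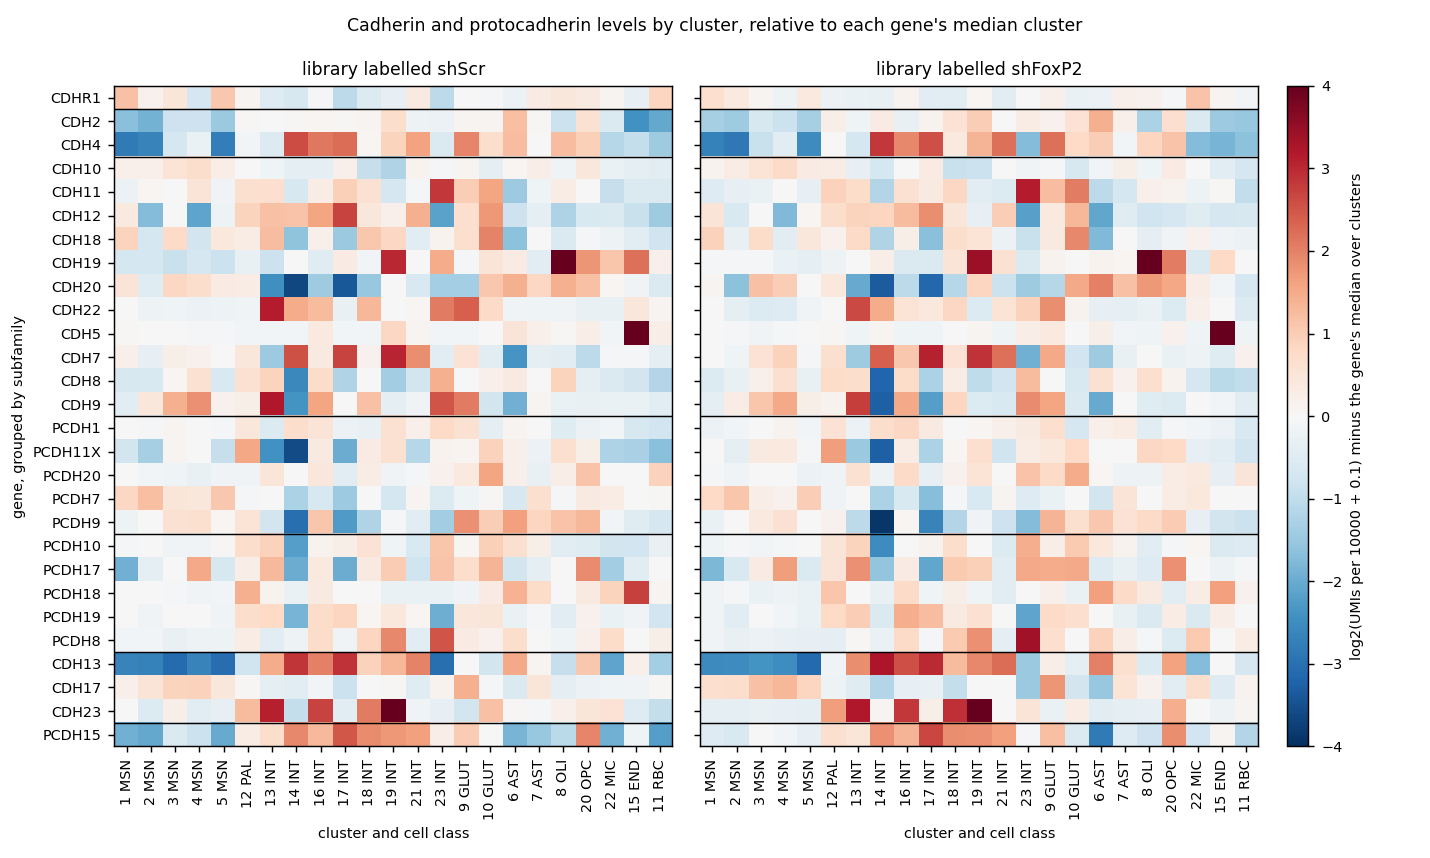
Levels of the 28 genes with at least 200 UMIs in the 23 clusters (columns) of the shScr library (left) and of the library labelled shFoxP2 (right). Colour gives log2(UMIs per 10000 + 0.1) minus the gene's median over clusters, and black lines separate the subfamilies. MSN, medium spiny neuron. PAL, pallidal-like. INT, interneuron. GLUT, GLUT+. AST, astrocyte. OLI, oligodendrocyte. OPC, oligodendrocyte precursor. MIC, microglia. END, endothelial. RBC, red blood cell. CDH19 stands out in cluster 8 and CDH5 in cluster 15 in both libraries.

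CDH19, a type II cadherin known from glia of the Schwann cell and oligodendrocyte lineages, marked the oligodendrocytes. Its level there was 14.3 UMIs per 10000 [13.6, 15.1] for shScr and 12.8 [12.1, 13.6] for shFoxP2. The next class stood at 0.907 in the shScr library (endothelial) and at 0.518 in the shFoxP2 library (oligodendrocyte precursors), which gives folds of 15.8 [10.8, 23.999] and 24.8 [15.8, 41.3]. After thinning each nucleus to 1000 UMIs, 75.3% of 389 and 73.4% of 357 oligodendrocytes held a CDH19 UMI, against 0.301% and 0.465% of MSNs. Its only other cluster above 1 UMI per 10000 was interneuron cluster 19, at 1.66 [1.31, 2.08] and 1.52 [1.19, 1.92]. CDH19 was thus low in oligodendrocyte precursors, where its level was 0.646 and 0.518.

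CDH5 (VE-cadherin), the cadherin of endothelial adherens junctions, was found in the endothelial cluster at 2.38 UMIs per 10000 [1.86, 3.01] and 2.49 [2.05, 3.01]. No other class exceeded 0.0319 in either library, and the folds over the next class were 74.7 [38.3, 162] and 91.6, the latter against a single UMI and with an interval from 16.1 to 3651. In red blood cells 1 and 0 CDH5 UMIs were counted. PCDH12, another cadherin known from vascular endothelium in mammals, had 9 UMIs in all, too few to place. PCDH18 was also highest in endothelial nuclei, at 0.705 [0.437, 1.08] and 0.320 [0.175, 0.538], from 21 and 14 UMIs. Its fold over the next class was 3.14 [1.62, 6.10] for shScr and 1.61 [0.839, 2.90] for shFoxP2, where astrocyte cluster 6 stood at 0.318, so in the latter it did not differ beyond counting error.

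Among the remaining glial patterns, CDH2 (N-cadherin, a type I cadherin found widely in neural tissue) and CDH20, a type II cadherin, had their highest cluster in cluster 6, the shallower astrocyte cluster. CDH2 stood there at 4.90 and 5.60 UMIs per 10000, against 0.426 and 0.653 in red blood cells. CDH20 stood at 8.30 [7.72, 8.91] and 8.92 [8.40, 9.46] in cluster 6 and at 8.28 [7.72, 8.87] and 7.40 [6.86, 7.97] in the oligodendrocytes, which overlap in the shScr library. In interneuron clusters 14 (0.156 and 0.121) and 17 (0.201 and 0.152) CDH20 was below its level in red blood cells (2.04 and 1.31). PCDH15 was high in oligodendrocyte precursors, with 18.5 [17.1, 19.98] and 18.96 [17.6, 20.4], and low in mature oligodendrocytes, with 2.18 and 2.88. Astrocyte cluster 7 had deeper nuclei than cluster 6 (medians of 4110 and 4415 UMIs against 1550 and 1703), and its levels lay between those of cluster 6 and of MSN clusters 1 and 2 for 21 of 28 genes in the shScr library and 19 of 28 in the shFoxP2 library, beside 58.7% and 61.3% of all genes. Whether its nuclei are mixtures was not tested.

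Within the interneurons, single clusters differed widely. CDH9, a type II cadherin that takes part in the choice of synaptic partners in the mouse retina and hippocampus, was highest in cluster 13, at 55.5 UMIs per 10000 [54.0, 57.1] for shScr and 56.2 [55.0, 57.4] for shFoxP2. In cluster 14 it stood at 1.06 [0.809, 1.36] and 0.754 [0.593, 0.946], below the 4.29 and 5.99 of the red blood cells. Both clusters held more PVALB, a marker of fast-spiking interneurons in mammals, than the other interneuron clusters (3.87 and 2.83 in cluster 13, 4.63 and 3.26 in cluster 14), although PVALB in red blood cells was 4.44 and 1.75. CDH22, also type II, and PCDH17 followed CDH9 in this respect. CDH22 was 0.988 and 0.817 in cluster 13 and 0.243 and 0.312 in cluster 14. PCDH17 was 2.41 and 3.08 in cluster 13 and 0.156 and 0.201 in cluster 14.

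The reverse held for another set of cadherins. CDH13 (T-cadherin, which is anchored by a lipid and has no cytoplasmic tail) stood at 17.6 [16.5, 18.7] and 17.6 [16.8, 18.4] in cluster 14 and at 6.76 and 6.73 in cluster 13. CDH4 (R-cadherin, type I) stood at 14.1 and 14.8 in cluster 14 and at 1.48 and 1.19 in cluster 13. CDH7 was 4.83 and 3.27 in cluster 14 and 0.209 and 0.144 in cluster 13. Cluster 17, the interneuron cluster with the most LHX6 (4.64 and 3.64), shared the high levels of this second set, with CDH13 at 18.2 and 14.6, CDH4 at 10.8 and 12.5 and CDH7 at 5.45 and 5.40. Cluster 17 also held the highest CDH12, at 79.0 [76.4, 81.6] and 60.2 [58.1, 62.3], and the highest PCDH15, at 27.1 [25.6, 28.7] and 33.5 [32.0, 35.1].

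Cluster 23, with 32 and 44 nuclei the smallest, was the cholinergic cluster, with CHAT at 13.5 in both libraries. CDH11, CDH8, PCDH8 and PCDH10 all had their highest cluster here in both libraries. CDH11 stood at 8.72 [7.46, 10.1] and 10.4 [9.25, 11.7], CDH8 at 9.24 [7.94, 10.7] and 8.51 [7.47, 9.65], and PCDH10 at 4.65 [3.74, 5.71] and 6.16 [5.28, 7.14]. PCDH8 rested on 13 and 40 UMIs in these nuclei. The same nuclei were low in CDH12 (2.63 and 3.64), in CDH13 (0.206 and 0.560) and in PCDH19 (0.258 and 0.140), all below the levels of these genes in red blood cells (4.38 and 10.6, 0.852 and 1.07, 0.700 and 0.941).

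The pair of tip-link genes did not follow each other. CDH23 was highest in interneuron cluster 19, at 2.97 [2.49, 3.52] and 3.72 [3.19, 4.31], and next in cluster 13 at 1.56 and 1.44, while in clusters 14 and 17 it did not exceed 0.0947. PCDH15 was high in clusters 14 (18.2 and 18.6) and 17, where CDH23 was low, as well as in cluster 19 (15.9 and 18.7), and lower in cluster 13 (7.72 and 7.33). Cluster 16, which held the most SST, NPY and NOS1 of the interneuron clusters, was the interneuron cluster with the most PCDH9, at 54.1 and 40.8, where the next interneuron cluster (19) stood at 23.9 and 34.7.

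**Figure D2:**
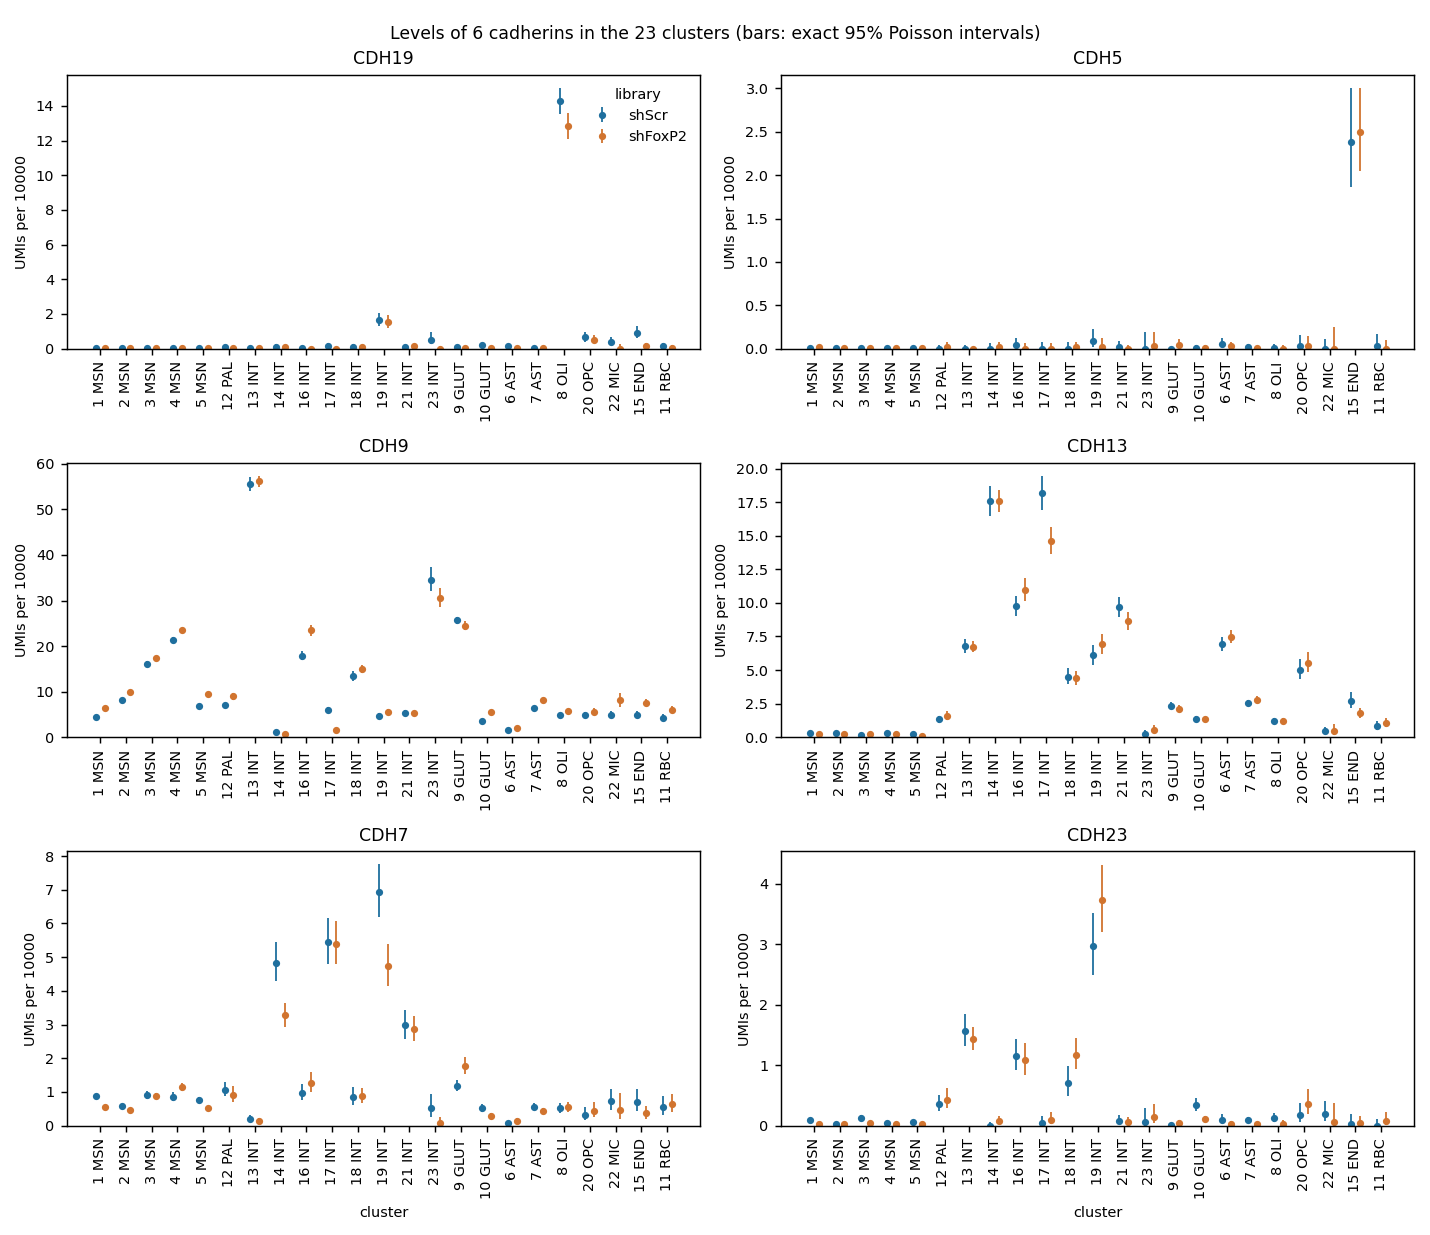
Levels (UMIs per 10000) of 6 cadherins in each of the 23 clusters, with the class abbreviation beside the cluster number, in the shScr library (blue) and in the library labelled shFoxP2 (orange). Bars are exact 95% Poisson intervals. CDH19 and CDH5 rise in 1 cluster each, and CDH9 is near 56 UMIs per 10000 in cluster 13 but near 1 in cluster 14, where CDH13 and CDH7 are high.

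In the pallidal-like and GLUT+ clusters further differences were seen. PCDH11X, a delta-1 protocadherin, was highest in the pallidal-like cluster, at 16.7 [15.9, 17.6] and 18.1 [17.1, 19.2]. It was lower in interneuron cluster 14 (0.381 and 0.503) than in red blood cells (1.70 and 3.29). The GLUT+ clusters 9 and 10 parted on several genes. PCDH9 had its highest cluster in cluster 9, at 89.9 and 97.5, with 49.8 and 59.8 in cluster 10. CDH9 followed it, with 25.7 and 24.4 in cluster 9 and 3.54 and 5.45 in cluster 10. CDH18 was the opposite, highest of all clusters in cluster 10 at 26.7 and 30.8, with 10.4 in cluster 9 in both libraries, and CDH20 too was 6.56 and 6.32 in cluster 10 and 1.14 and 0.912 in cluster 9. CDH12 stood at 40.6 and 42.3 in cluster 10 and at 19.1 and 21.9 in cluster 9.

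Across the 23 clusters the most alike pair of genes was CDH13 and CDH4, with a Pearson correlation of log2(level + 0.1) of 0.790 in the shScr library and 0.821 in the shFoxP2 library (Spearman 0.788 and 0.837). PCDH9 and CDH20 (0.762 and 0.807, Spearman 0.713 and 0.767), PCDH10 and CDH8 (0.725 and 0.741, Spearman 0.583 and 0.477) and PCDH9 and PCDH11X (0.702 and 0.784, Spearman 0.606 and 0.710) came next among 378 pairs. The most opposed pair was PCDH7 and CDH4, at -0.78 and -0.73. The 23 points share a library, a pool of free RNA and a range of depths, so these are descriptions.

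MSNs, the spiny projection neurons of the striatum, made up 9657 and 8393 of the nuclei and fell into 5 clusters. In mammals MSNs of the direct pathway carry the dopamine receptor gene DRD1 and those of the indirect pathway DRD2. By DRD2, clusters 2 and 4 (0.183 and 0.210 UMIs per 10000 over both libraries) were direct-like and clusters 1, 3 and 5 (3.89, 3.22 and 2.21) indirect-like, where direct-like means a DRD2 level under 25% of that of the highest MSN cluster. DRD1 was only slightly higher in the direct-like clusters. In the shScr library it was 1.52 and 1.73 in clusters 2 and 4, against 1.45, 1.27 and 1.22 in clusters 1, 3 and 5. In the shFoxP2 library it was 1.14 and 1.16, against 0.912, 0.811 and 0.853. All these levels were below those of red blood cells (2.04 and 1.78). Clusters 1 and 2 were the largest of each kind, and clusters 3 and 4 came next. Cluster 5 was smaller still, with 675 and 648 nuclei against 865 and 1049 in cluster 3. Cluster 5 had the deepest nuclei (medians of 4278 and 5344 UMIs). FOXP2, which the paper counts among the genes of the direct pathway, was 4.57 and 5.56 in cluster 5. It was 0.441 and 0.508 in cluster 1 and 8.04 and 10.3 in cluster 2. Cluster 5 thus held both DRD2 and FOXP2, and was pooled with the indirect-like clusters by DRD2 alone.

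PCDH7 had MSNs as its highest class in both libraries, at 46.6 and 44.3 UMIs per 10000 against 25.3 and 25.5 in red blood cells. CDH13 was the opposite, at 0.263 and 0.214 in MSNs against 0.852 and 1.07 in red blood cells. Not all MSN clusters were high in PCDH7. Clusters 3 and 4 held 34.3 and 33.3 in the shScr library and 30.4 and 28.7 in the shFoxP2 library, where astrocytes held 31.2 (shScr) and 28.5 (shFoxP2).

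CDH12 and CDH18, both type II cadherins, were lower in direct-like than in indirect-like MSNs in each library, and PCDH17 was higher. These were 2 lower and 1 higher of 21 genes with at least 200 UMIs in each library that lay at least 2-fold apart in both, beside 0.63% and 0.497% of all 8255 such genes. CDH12 stood at 3.38 UMIs per 10000 in direct-like and 13.9 in indirect-like nuclei of the shScr library, a log2 ratio of -2.04 [-2.09, -1.99]. In the shFoxP2 library it stood at 9.08 and 20.7, a log2 ratio of -1.19 [-1.22, -1.15]. Red blood cells held 4.38 and 10.6, so that CDH12 in the pooled direct-like nuclei was below that level in both libraries. Cluster 2 of the shFoxP2 library taken alone, at 10.8, was not below it. CDH18 was 4.01 and 11.4 in the shScr library (log2 ratio -1.51 [-1.56, -1.47]) and 6.28 and 13.8 in the shFoxP2 library (-1.13 [-1.17, -1.10]), with 3.74 and 6.87 in red blood cells. By cluster, CDH12 stood at 15.8, 12.04 and 10.4 in clusters 1, 3 and 5 of the shScr library and at 3.54 and 2.69 in clusters 2 and 4, so the kinds did not overlap. In the shFoxP2 library the same clusters held 23.8, 16.7 and 17.6 against 10.8 and 4.86.

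PCDH17, a delta-2 protocadherin known from synapses of corticobasal ganglia circuits in mice, was 1.09 in direct-like and 0.390 in indirect-like nuclei of the shScr library and 1.15 and 0.446 in the shFoxP2 library. Its log2 ratios were 1.48 [1.34, 1.63] and 1.37 [1.24, 1.503]. Among the MSN clusters it was concentrated in cluster 4, at 2.80 [2.58, 3.04] and 2.77 [2.59, 2.95]. Cluster 2 held 0.678 and 0.493 and cluster 1 only 0.1701 and 0.158. Of the cell classes, oligodendrocyte precursors held the most PCDH17, at 3.68 and 3.05. Red blood cells held 0.913 and 0.758, so that 4 of the 5 MSN clusters were near or below that level. The difference held within each size of cluster, with log2 ratios of cluster 2 over cluster 1 of 2.00 and 1.64 and of cluster 4 over cluster 3 of 1.63 and 1.42.

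CDH20 was at least 2-fold lower in cluster 2 than in cluster 1 in both libraries (2.15 against 4.46 in the shScr library, 0.616 against 2.33 in the shFoxP2 library), but clusters 3 and 4 stood at 5.46 and 5.08 in the shScr library and at 4.89 and 4.31 in the shFoxP2 library. CDHR1, known from photoreceptors, had a log2 ratio of direct-like over indirect-like of -1.54 [-1.84, -1.25] in the shScr library and of -0.59 [-1.03, -0.16] in the shFoxP2 library, so it did not pass 2-fold in both. Of the 21 genes, 19 had the same sign in both libraries, beside 68.5% of all genes tested, which were not matched for UMI sums.

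**Figure D3:**
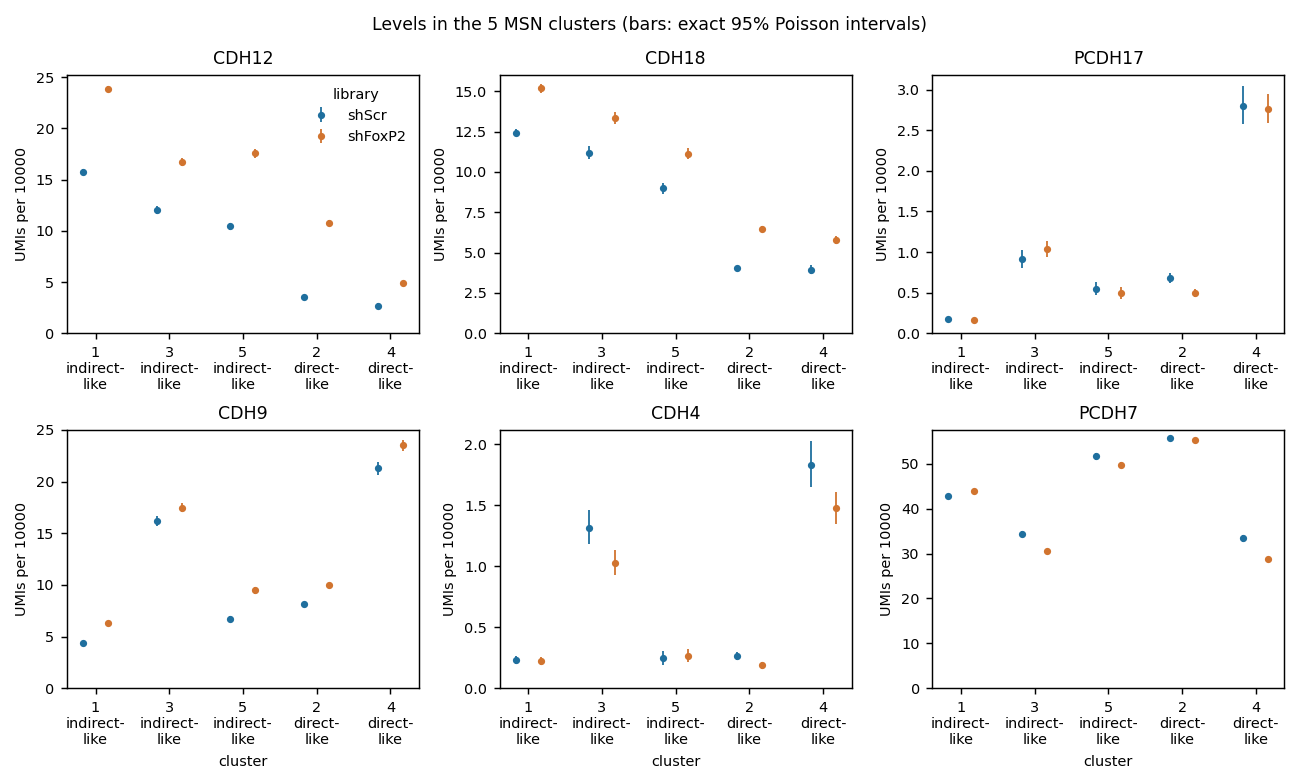
Levels (UMIs per 10000) of 6 genes in the 5 MSN clusters, with indirect-like clusters to the left and direct-like clusters to the right, in the shScr library (blue) and the library labelled shFoxP2 (orange). Bars are exact 95% Poisson intervals. CDH12 and CDH18 are higher in clusters 1, 3 and 5, CDH9 and CDH4 are higher in clusters 3 and 4, PCDH17 is highest in cluster 4 and PCDH7 is highest in cluster 2.

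A second contrast ran across the first and was chosen after the values had been seen, namely the smaller clusters 3 and 4 against the larger clusters 1 and 2. CDH9, CDH4 and PCDH17 were at least 2-fold higher in clusters 3 and 4 in both libraries and no gene was 2-fold lower, or 3 and 0 of 20 genes, beside 1.91% and 0.718% of all 7941 genes tested. CDH9 stood at 18.4 and 6.23 in the shScr library (log2 ratio 1.56 [1.52, 1.60]) and at 20.3 and 8.14 in the shFoxP2 library (1.32 [1.28, 1.35]). CDH4 stood at 1.54 and 0.247 (2.64 [2.46, 2.81]) and at 1.24 and 0.206 (2.59 [2.41, 2.77]), where red blood cells held 0.761 and 0.575. PCDH17 had log2 ratios of 2.03 and 2.51.

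PCDH15, PCDH11X and CDH8 were also higher in clusters 3 and 4, with log2 ratios in the shScr library of 1.36, 1.08 and 1.00 and in the shFoxP2 library of 0.53, 0.56 and 0.86. So were CDH20 (0.68 and 1.64), CDH2 (1.08 and 0.70), CDH17 (0.84 and 0.63) and PCDH9 (0.72 and 0.62). Further genes were higher there and are not named. PCDH7 (-0.54 and -0.74) and CDH12 (-0.28 and -0.64) were lower there, and CDH18 slightly so (-0.04 and -0.15). The MSN clusters thus differed in these genes, but shared many of them. Cluster 1 was high in CDH12 and CDH18, cluster 2 in PCDH7, cluster 3 in CDH12, CDH18, CDH9 and CDH4, and cluster 4 in CDH9, CDH4 and PCDH17. CDH4 was 1.32 and 1.03 in cluster 3 and 1.83 and 1.48 in cluster 4. PCDH7 was nearly as high in cluster 5 (51.6 and 49.7) as in cluster 2 (55.6 and 55.2). Cluster 5 lay between clusters 1 and 2 for 14 of 28 genes in the shScr library and 15 in the shFoxP2 library, beside 28.0% and 28.9% of all genes.

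The study asked what lower FoxP2 does to gene expression in Area X. Between the libraries, CDH17 and PCDH15 were at least 2-fold higher in MSNs of the shFoxP2 library and CDHR1 and CDH23 at least 2-fold lower. These were 2 and 2 of 22 genes, beside 2.4% and 2.31% of all 10125 genes with at least 200 UMIs in MSNs. In all, 11 of the 22 log2 ratios lay above 0 and 11 below, with a median of 0.05 beside 0.01 for all genes. Over all nuclei, CDH17 was at least 2-fold higher and CDHR1 at least 2-fold lower, 1 and 1 of 28 genes, beside 2.07% and 2.17% of all genes. The birds, the libraries and the hairpins cannot be told apart.

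CDH17, the liver-intestine cadherin of mammals, had 397 UMIs in MSNs of the shScr library and 2111 in those of the shFoxP2 library. Its level was 0.157 UMIs per 10000 [0.142, 0.173] for shScr and 0.766 [0.734, 0.7996] for shFoxP2, a log2 ratio of 2.28 [2.13, 2.44]. CDH17 was higher in the shFoxP2 library in 10 of 10 classes, which all come from the same pair of libraries. Its levels there ranged from 0.0403 to 0.258 in the shScr library and from 0.229 to 0.766 in the shFoxP2 library. In oligodendrocyte precursors (2 and 9 UMIs) and endothelial nuclei (2 and 10 UMIs) the difference was within counting error. In GLUT+ nuclei, the other class with enough CDH17 UMIs, the log2 ratio was 1.45, the only gene past 2-fold of 20, which makes 1 higher and 0 lower beside 0.611% and 0.453% of all genes. Red blood cells had 3 UMIs (0.0913 per 10000) and 16 UMIs (0.418). Thinned to 1000 UMIs, 1.48% and 7.55% of MSNs held a CDH17 UMI.

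PCDH15 in MSNs stood at 1.45 [1.40, 1.49] in the shScr library and at 3.95 [3.88, 4.03] in the shFoxP2 library, a log2 ratio of 1.45 [1.40, 1.51]. It stood at 1.18 and 3.56 in MSN cluster 1 and at 1.06 and 3.36 in cluster 2. Clusters 3 (3.13 and 5.17) and 4 (2.55 and 4.77) were less than 2-fold apart between the libraries. PCDH15 was higher in the shFoxP2 library in 9 of 10 classes, with 1.47 and 2.55 in astrocytes, and lower in GLUT+ nuclei (7.59 and 6.82). In the classes where it was highest it differed little, with 14.6 and 15.5 in interneurons and 18.5 and 18.96 in oligodendrocyte precursors. In red blood cells it was 0.943 [0.641, 1.34] and 2.25 [1.80, 2.78]. The level in MSNs was above that of red blood cells in both libraries. Thinned to 1000 UMIs, 12.2% and 27.0% of MSNs held a PCDH15 UMI, beside 13.4% and 20.6% of the 82 and 68 red blood cells deep enough to be thinned, out of 328 and 373.

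CDHR1 went the other way. It was 0.238 UMIs per 10000 [0.219, 0.257] in MSNs of the shScr library and 0.0766 [0.0666, 0.0876] in the shFoxP2 library, a log2 ratio of -1.63 [-1.87, -1.41]. Its level was lower in the shFoxP2 library in 9 of 10 classes, and it was 0.274 and 0.0261 in red blood cells (9 UMIs and 1). CDH23 was 0.0657 and 0.0290 in MSNs, from 166 and 80 UMIs, a log2 ratio of -1.18 [-1.58, -0.79]. In interneurons, where it was higher, CDH23 stood at 0.9001 and 0.963.

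CDH12 passed 2-fold in red blood cells alone, at 4.38 [3.69, 5.16] and 10.6 [9.58, 11.7], a log2 ratio of 1.27 and the only such gene of 6, which makes 1 higher and 0 lower beside 1.24% and 4.78% of all genes. In MSNs it stood at 9.49 and 15.8, a log2 ratio of 0.74 [0.72, 0.76], and in interneurons at 30.9 and 31.1. It was higher in the shFoxP2 library in 10 of 10 classes, but in interneurons only within counting error (log2 ratio 0.007 [-0.02, 0.04]). Within the MSN clusters its log2 ratio was 1.61 in cluster 2, at 3.54 and 10.8. The part of free RNA in these differences was not tested.

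The middle 90% of all genes in MSNs had log2 ratios from -0.68 to 0.71. Besides the genes above, PCDH11X (0.74 [0.70, 0.77]) and PCDH9 (0.59 [0.58, 0.60]) were higher in the shFoxP2 library, and CDH20 (-0.65 [-0.70, -0.60]) and PCDH19 (-0.61 [-0.69, -0.53]), whose human gene is mutated in an epilepsy of females, were lower, all but PCDH11X inside that range. PCDH9 was 26.8 and 40.3 in MSNs and 15.9 and 20.9 in red blood cells. In interneurons, 0 of 22 genes were higher and 0 lower by 2-fold, beside 0.443% and 0.9% of all genes, and in astrocytes 0 and 0 of 19, beside 0.628% and 0.571%. CDHR3, the rhinovirus receptor of human airway, was counted 3 times in the shScr library and 72 times in the shFoxP2 library, under the minimum of 200.

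**Figure D4:**
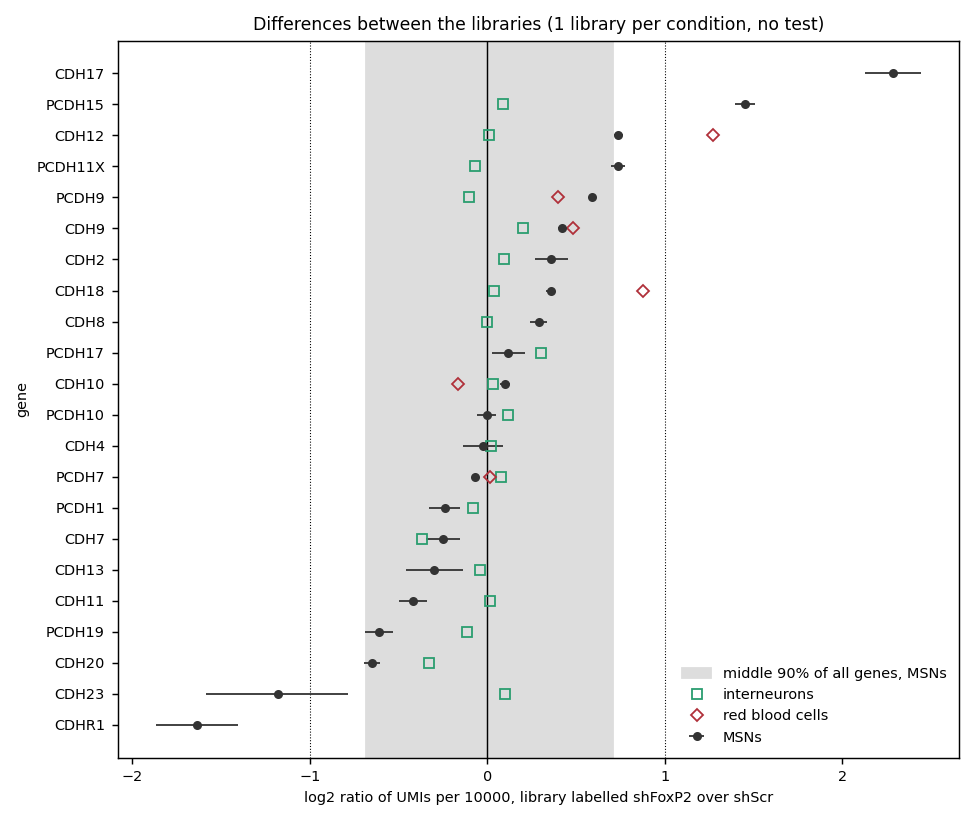
Log2 ratio of the level in the library labelled shFoxP2 over that in the shScr library for the 22 genes with at least 200 UMIs in MSNs (filled points, with exact 95% binomial intervals). Squares are interneurons, diamonds are red blood cells, the grey band is the middle 90% of all genes in MSNs and dotted lines mark 2-fold. CDH17 and PCDH15 lie above 2-fold and CDH23 and CDHR1 below, and the red blood cell ratio of CDH12 exceeds that of MSNs.

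**Figure D5:**
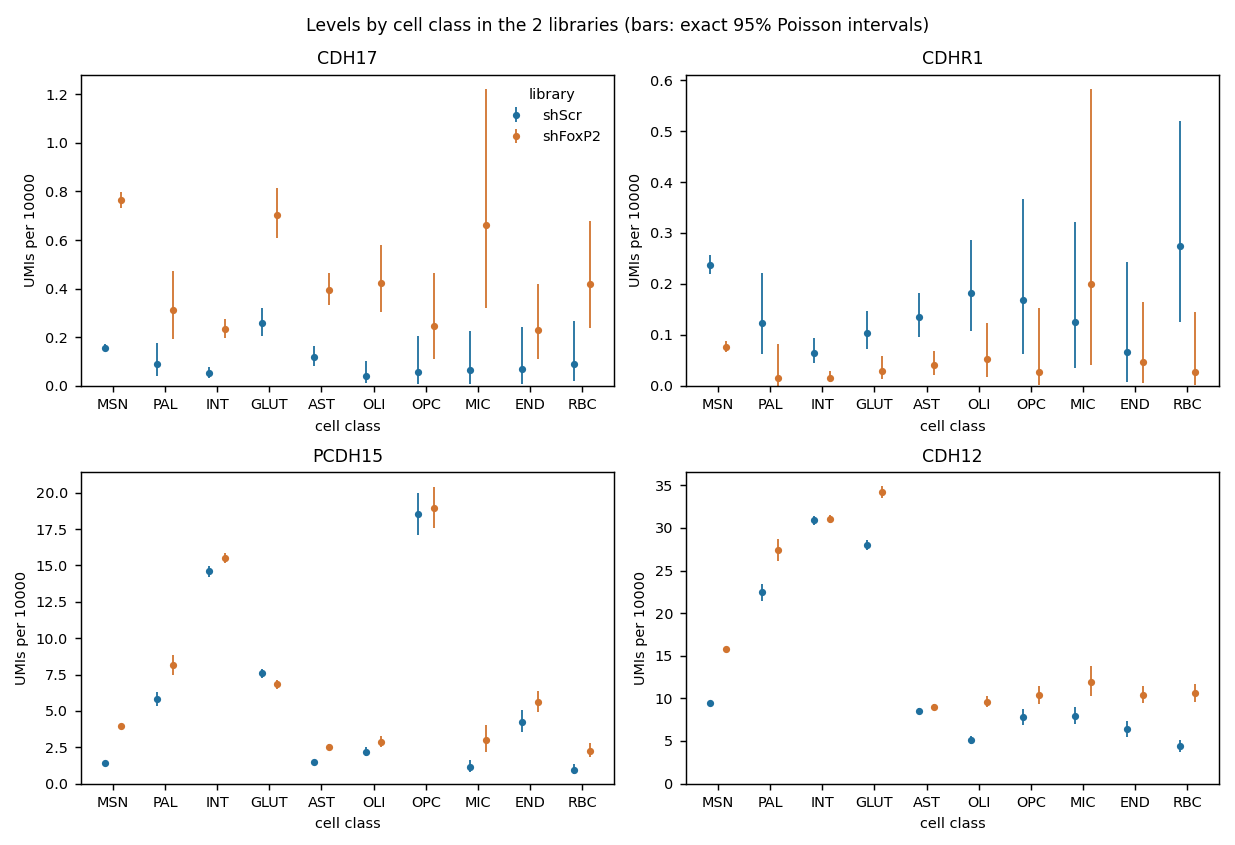
Levels (UMIs per 10000) of CDH17, CDHR1, PCDH15 and CDH12 by cell class, abbreviated as in the map of levels by cluster, in the shScr library (blue) and the library labelled shFoxP2 (orange), with exact 95% Poisson intervals. CDH17 is higher in all 10 classes of the shFoxP2 library, whereas PCDH15 is close in interneurons and oligodendrocyte precursors of both.

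Partners of the cadherins were read from a list of 34 genes (catenins and other adaptors, nectins, proteases and other members of the superfamily), of which 31 had a gene column and 27 reached 200 UMIs. In MSNs 10 of 23 had a log2 ratio above 0 and 13 below, none of them past 2-fold, with a median of -0.05, beside 50.9% of all genes above 0 and a median of 0.01. CTNNA3 (alpha-T-catenin) and PKP4 (plakophilin 4, a p120 relative) were at least 3 times higher in their highest class, the oligodendrocytes, than in the next in both libraries, or 2 of 27, beside 3.86% of all genes. CTNNA3 was 37.4 and 31.6 times higher there and PKP4 4.98 and 4.19 times.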

How the data were processed

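Single-nucleus 10x libraries were made from Area X punches pooled from 2 birds per condition. The deposited values were counts: UMIs per gene and nucleus, which the authors obtained by aligning reads to bTaeGut1_v1.p, exons and introns together, with Cell Ranger, and not normalized. The authors removed nuclei over 10000 UMIs or 5% mitochondrial UMIs, and the deposited nuclei had at least 500 UMIs. The nuclei carried the authors' integrated clusters, which were given the study's class names and set beside markers. Many of these markers are those by which the paper named its clusters, so this was not an independent check. GAD2 and MEIS2 were listed for 2 classes each, so not every marker could be highest in its own class. FOXP2 was listed for the pallidal-like class only, though the paper lists it for MSNs. The table calls the libraries by codes, and the shScr code was identified because its nuclei and counts were identical to those of the submitters' table of the scrambled library alone. No sample column was left unused.

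UMIs were summed per gene, cluster or class and library and divided by all UMIs of the sum (Python 3.11.15, numpy 2.4.6, scipy 1.17.1, pandas 2.3.3). A ratio between libraries or between MSN clusters was formed where its sums held at least 200 UMIs together, with 3 in place of an empty sum. The fold of the highest class over the next required 200 UMIs of the gene over both libraries, not in the classes compared. The class folds of CDH5 and PCDH18 therefore rest on sums under 200 UMIs. Doublets were not removed: Scrublet (scanpy 1.11.5), run on each library, called 0 nuclei by its own threshold, so its scores served only to leave out the highest 8% as an alternative. Thinning left out 626 and 531 nuclei under 1000 UMIs. Nuclei are not replicates, so conditions and clusters were compared without a statistical test. The code for ratios and intervals was checked on simulated counts. The genes given in full were those 3-fold above the next class, those 2-fold apart between direct-like and indirect-like MSNs in both libraries, those 2-fold apart between libraries in a class, and the 5 with the most UMIs. The genes and lists were chosen with earlier results of these data known. Sequences and lengths of these genes were not used here.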

Additional observations from a re-analysis of the deposited data

How the results depend on the processing

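Of 84 recomputed counts of genes, 73 stayed within 1.5 times the reported count and 11 did not. With a fold of 1.5, the genes lower in direct-like MSNs became 4, those higher in clusters 3 and 4 became 8, those higher and lower in MSNs of the shFoxP2 library became 5 and 4, and those higher over all nuclei became 2. With a minimum of 1000 UMIs, 1 gene was highest in 1 class by 3-fold and 0 were lower in MSNs of the shFoxP2 library. With a minimum of 50 UMIs, 1 gene was lower in clusters 3 and 4 and 2 were higher over all nuclei. After thinning to 1000 UMIs, 1 gene was lower in MSNs of the shFoxP2 library. A class fold of 2, chosen after seeing the data like the contrast of clusters 3 and 4, gave 4 genes. The share of all genes was not computed at these changed settings. These counts therefore have no background beside them and say nothing particular to the family. Of the recomputed single values (folds and log2 ratios), 164 stayed within the counting interval of the main value and 30 did not. A changed minimum or fold leaves such a value as it is. No log2 ratio changed sign, but these genes were chosen for lying past 2-fold and were recomputed on largely the same nuclei. The folds of CDH19 and CDH5 have no sign to change, so they say nothing about direction. The fold of CDH19 in oligodendrocytes over the next class ranged from 12.1 to 26.3 (shScr) and from 21.04 to 25.8 (shFoxP2), and that of CDH5 in endothelial nuclei from 13.2 to 92.2 and from 55.5 to 140. The log2 ratio between libraries in MSNs ranged from 2.22 to 2.40 for CDH17 and from 1.37 to 1.47 for PCDH15. No paired analysis was possible because each condition had 1 library. Depth limits the 6 genes under 200 UMIs, for which no ratio was formed, and values resting on few UMIs, such as those of PCDH8 in cluster 23.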

Other observations

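Correlations across clusters of neighbouring genes of the family ranged from -0.30 to 0.286. They were not set beside the spread of all 378 pairs, so they say nothing particular to neighbours. On the RefSeq assembly bTaeGut7.mat, used only for names and gene order, all 34 symbols were found and 6 pairs lay next to each other with no protein-coding gene between. CDH12, CDH10 and CDH9 followed each other on chromosome 2. Across the 23 clusters the correlation of CDH12 with CDH10 was -0.20 in the shScr library and -0.14 in the shFoxP2 library. That of CDH10 with CDH9 was 0.166 and 0.208. CDH19 and CDH7, also neighbours on chromosome 2, were highest in oligodendrocytes and in interneurons and had correlations of 0.0442 and 0.114. CDH5 and CDH11 on chromosome 11, highest in endothelial nuclei and in cholinergic cluster 23, had -0.30 and 0.0252. PCDH18 with PCDH10 had 0.0239 and 0.106, and PCDH9 with PCDH20 had 0.286 and 0.156. These correlations are over clusters that share libraries and free RNA. Those of CDH5 (266 UMIs in all), PCDH20 (324) and PCDH18 (346) rest on few UMIs in most clusters.

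The likeness of a gene's pattern over the 23 clusters between libraries differed by gene. The Pearson correlation between the libraries was highest for PCDH7 (0.989), CDH13 (0.986) and PCDH9 (0.979), and lowest for CDHR1 (0.489), PCDH20 (0.695) and CDH17 (0.737). By Spearman correlation the lowest were CDH5 (0.0691), CDH19 (0.432) and CDH23 (0.542), whose Pearson correlations were 0.959, 0.869 and 0.914. The order of the genes thus depended on the measure.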
